A study of Mus musculus with 6 samples.

Results

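The genes of the acrosome and of gamete interaction were followed in whole mouse testis after a chemical block of GDNF signalling. The acrosome is the secretory vesicle that caps the sperm nucleus. The set comprised 33 genes, named by symbol for acrosome formation, acrosomal content or sperm-egg interaction, out of 23361 genes tabulated, and all 33 were found in the table. The rule itself used names and not expression values, although the set was proposed with earlier results of these data known, and all 33 were abundant enough to be tested. Polyadenylated RNA was sequenced from 6 C57BL/6J mice of about 120 days, all homozygous for Ret (V805A), a substitution in the GDNF receptor kinase that makes it sensitive to 1NaPP1-HCl. The inhibitor group was 3 mice injected daily for 9 days with 1NaPP1-HCl dissolved in vehicle. The control group was 3 mice given the vehicle (saline, cremophor and ethanol) on the same schedule. Testes were taken on day 14, after 5 days without injections. Each library was a separate mouse. Every mouse carried the Ret substitution, so a Ret-dependent and a Ret-independent action of 1NaPP1-HCl cannot be told apart here, and RET activity was not measured.

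The acrosome is built in round spermatids, where vesicles from the Golgi fuse, settle on the nuclear envelope and spread over it. It stores proteases, hyaluronidases and binding proteins that are released when sperm meet the layers around the egg. Fusion with the egg then depends on membrane proteins exposed by that release, IZUMO1 foremost. GDNF, by contrast, acts through RET on undifferentiated spermatogonia, the first cells of the lineage, several weeks of development before round spermatids form. The comparison asked how testis RNA differed after the block and the days without it.

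The libraries held between 23144295 and 43127890 fragments assigned to genes. The 33 genes took 0.729%, 0.720% and 0.663% of these fragments in inhibitor mice 1, 2 and 3, against 0.658%, 0.636% and 0.670% in controls 1, 2 and 3. The library of inhibitor mouse 3 stood apart from those of its group. Chi-square per degree of freedom between inhibitor mouse 3 and inhibitor mice 1 and 2 was 11.5 and 12.5, against 4.76 between inhibitor mice 1 and 2 and 4.09 to 5.83 between controls. Results that rest on inhibitor mouse 3 are therefore given with and without it. All tabulated markers of spermatids, Sertoli cells and Leydig cells had fragments in all 6 libraries, which at this depth is a weak check of the labelled tissue.

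No acrosome or gamete interaction gene changed past the threshold in either direction. Of the 33, 0 were called higher and 0 lower (edgeR quasi-likelihood test, Benjamini-Hochberg adjusted p threshold 0.05), where 0.0600% of the 16658 genes tested were called higher and 0.0960% lower. The largest estimates were in Crisp2, Zpbp2 and Izumo3, each about 1.2-fold higher in inhibitor mice. At an unadjusted p threshold of 0.05, 8 of the 33 were higher and 0 lower, against 9.43% higher and 8.48% lower among all genes tested. Among the 5398 genes at least as abundant as the lowest of the 33, 922 were higher and 440 lower. Once a length and GC trend was taken out of each library, the count in the 33 turned round to 2 higher and 5 lower. The shares of all genes in that fit were 8.29% and 5.41%. Inhibitor and control mice were fully separate in 5 genes that were higher and 1 that was lower, against 11% and 11.9% of all genes tested. Among the 5398 genes the groups were separate in 993 that were higher and 576 that were lower. In the set, 24 of 33 genes had estimates above 0 (72.7%), with a median log2 fold change of 0.06, where all genes tested had 49.0% above 0 and a median of 0.00 and genes at least as abundant as the lowest of the 33 had 56.6% above 0 and a median of 0.02.

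Within the main fit, the spread between mice bounded most of these differences. The unadjusted 95% interval of the log2 fold change lay between −0.32 and 0.32 in 26 of 33 genes. The other 7, which reached further upward, were Crisp2, Zpbp2, Izumo3, Lyzl1, Prss37, Spam1 and Izumo2. Over the whole set the intervals ran from −0.22, the lower bound for Sun5, to 0.45, the upper bound for Izumo3. The intervals do not cover shifts between fits, and some estimates left them once a length and GC trend was removed. Eqtn then stood at −0.10, where its interval began at −0.07, and Izumo3 at 0.07, where its interval began at 0.09. These are bulk levels, in which fewer cells of a type and less RNA per cell cannot be told apart.

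**Figure D1:**
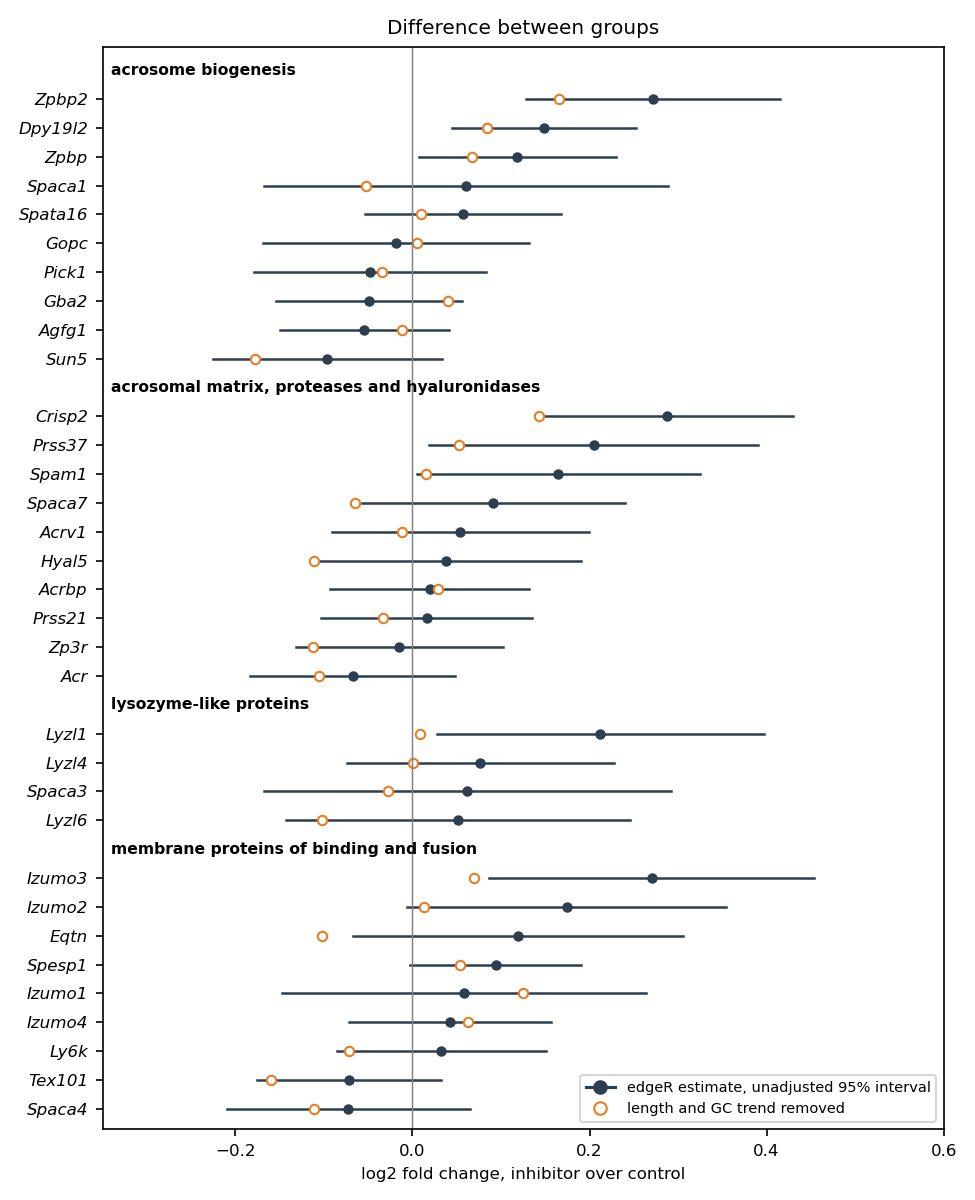
Log2 fold change of inhibitor over control for each of the 33 genes, grouped by role. Filled points and lines are edgeR estimates with unadjusted 95% intervals (3 mice per group), and open points are estimates after a length and GC trend was taken out of each library. Crisp2 (0.29), Zpbp2 (0.27) and Izumo3 (0.27) lie farthest to the right, and the open points of most genes lie nearer to or below 0.

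Levels per length spanned a wide range, and the groups kept much the same order. On the deposited FPKM scale, Crisp2, which encodes a cysteine-rich secretory protein of the acrosome and sperm tail, averaged 1782 ± 155 in inhibitor mice and 1458 ± 79.2 in controls (SD, n = 3 each). It was the most abundant of the 33 by far. Next stood Acrbp, whose product binds the acrosin precursor, with 342 ± 21.6 FPKM in inhibitor mice and 337 ± 11.3 FPKM in controls. Acrv1 averaged 224 ± 17.2 FPKM in inhibitor mice and 216 ± 15.3 FPKM in controls. Acrv1, Zpbp2 and Spaca1, at 216, 208 and 203 FPKM in controls, were neighbours in that order that did not differ beyond their spread. At the low end, Gopc averaged 8.68 ± 0.546 FPKM in inhibitor mice and 8.78 ± 0.434 FPKM in controls, below Pick1 at 31.4 ± 1.49 FPKM in inhibitor mice and 32.4 ± 1.17 FPKM in controls. Both encode broadly used Golgi and vesicle proteins rather than products of the acrosome alone.

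**Figure D2:**
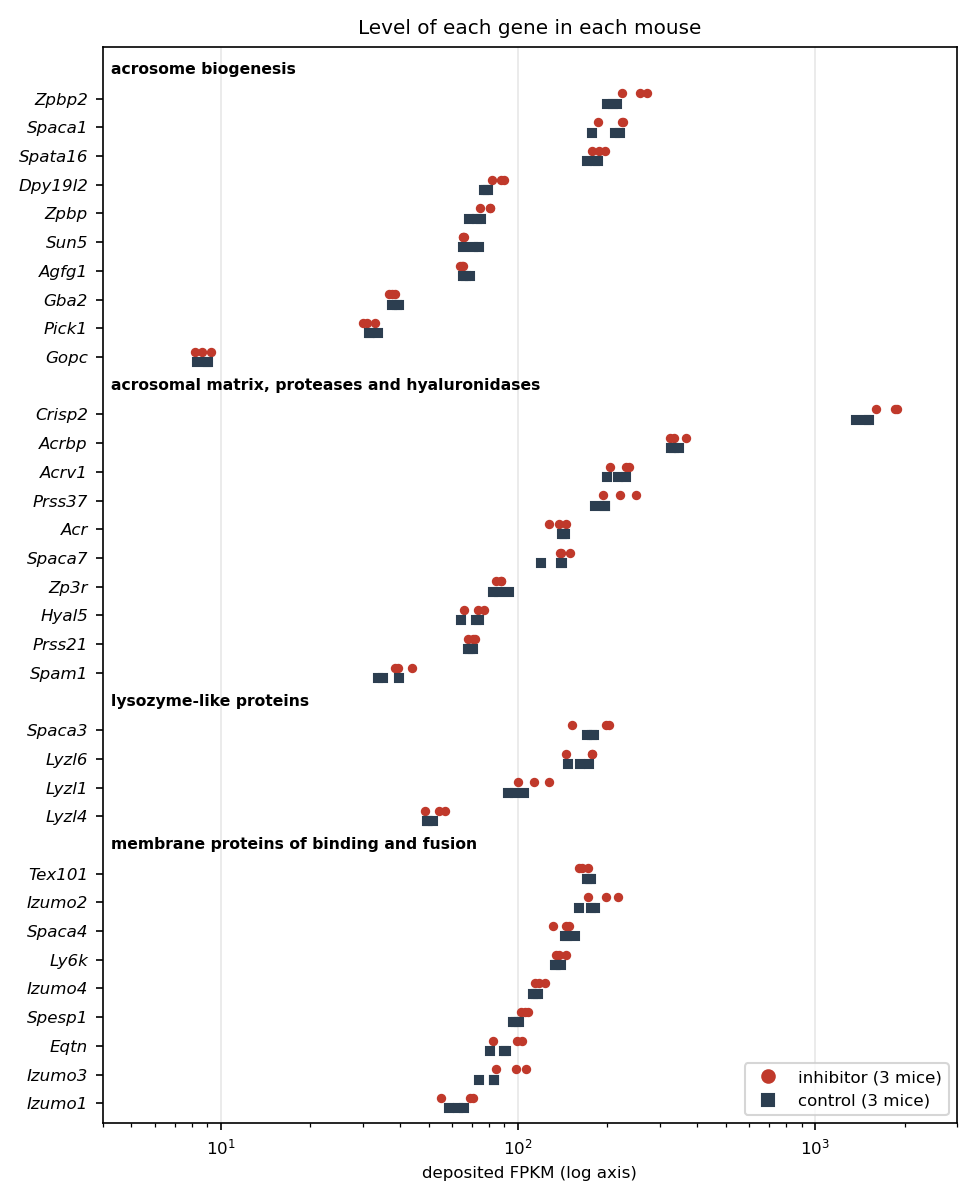
Deposited FPKM (log axis) of each gene in each mouse, with the 3 inhibitor mice as circles above the 3 control mice as squares, grouped by role and ordered by control level. Crisp2 lies between 1370 and 1881 FPKM, Gopc averages 8.68 FPKM in inhibitor mice and 8.78 in controls, and the groups lie close together within each gene.

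Among genes of acrosome formation, 5 of 10 estimates were above 0 and the median log2 fold change was 0.02. Zpbp2, which encodes a zona pellucida-binding protein of the acrosomal matrix needed in mice for normal sperm head shape, had 352, 334 and 290 CPM (the fragment rate of the gene, normalised between libraries) in inhibitor mice 1, 2 and 3, against 269, 261 and 280 CPM in controls 1, 2 and 3. All inhibitor mice lay above all controls. The log2 fold change was 0.27 (SE 0.066), and the difference did not pass (adjusted p = 0.0961, edgeR). Its paralogue Zpbp, also required for acrosome structure in mice, had 297, 296 and 273 CPM in inhibitor mice against 268, 253 and 276 CPM in controls, so that inhibitor mouse 3 fell among the controls (log2 fold change 0.12, SE 0.051). The FPKM ratio of Zpbp2 to Zpbp within a library was 3.38, 3.20 and 3.01 in inhibitor mice, against 2.88, 2.92 and 2.88 in controls. This ratio did not overlap between the groups. It was among 4 paralogue ratios computed after the values were seen, of which those of Zpbp2 to Zpbp and of Izumo3 to Izumo1 were separate and those of Hyal5 to Spam1 and of Spaca3 to Lyzl4 overlapped.

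Dpy19l2 encodes the inner nuclear membrane protein that anchors the acrosome to the nucleus, and its loss is a common cause of round-headed sperm in men. It had 290, 270 and 296 CPM in inhibitor mice, against 253, 262 and 258 CPM in controls. This gene too was separate between the groups, at a smaller size (log2 fold change 0.15, SE 0.048, edgeR adjusted p = 0.143), and inhibitor mouse 3 was the highest of its group here. Dpy19l2 shares 629 bases with Cypt4 on the opposite strand, so its fragments may not be wholly its own. Sun5, a nuclear envelope gene required for coupling of the sperm head to the tail, had the lowest estimate of the 33. Its levels were 63.5, 63.9 and 63.5 CPM in inhibitor mice, against 68.6, 63.5 and 72.0 CPM in controls (log2 fold change −0.10, SE 0.059), and control 2 lay among the inhibitor mice. The other 6 genes of this role had log2 fold changes between −0.05 and 0.06. They were Spaca1, for an inner acrosomal membrane protein, Spata16, for a Golgi-associated protein, Gopc and Pick1, for interacting PDZ-domain proteins of vesicle traffic, Agfg1, for a protein of the proacrosomal vesicle surface, and Gba2, for a glucosylceramidase. Of these Agfg1 alone was separate between the groups, at 193 ± 1.38 CPM in inhibitor mice and 200.5 ± 4.79 CPM in controls.

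Among the acrosomal matrix, protease and hyaluronidase genes, 8 of 10 estimates were above 0, with a median log2 fold change of 0.05. Crisp2 had 2422, 2394 and 2056 CPM in inhibitor mice, against 1904, 1770 and 1957 CPM in controls. Inhibitor mice 1 and 2 lay well above all controls and inhibitor mouse 3 just above them. With a log2 fold change of 0.29 (SE 0.064, adjusted p = 0.0928, edgeR) it had the smallest p of the set, at rank 183 among all genes tested. Prss37, for a protease-like protein that in mice is needed for processing of the sperm surface protein ADAM3, had 190, 215 and 166 CPM in inhibitor mice, against 169, 157 and 169 CPM in controls, with inhibitor mouse 3 among the controls (log2 fold change 0.20, SE 0.083).

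Acrosin and its binding partner gave estimates near 0. Acr, which encodes the protease acrosin, had 182, 168.5 and 192 CPM in inhibitor mice, against 189, 192 and 187 CPM in controls, and the groups overlapped (log2 fold change −0.07, 95% interval −0.18 to 0.05). Acrbp had 404, 394 and 442 CPM in inhibitor mice, against 402, 424 and 397 CPM in controls (log2 fold change 0.02, interval −0.09 to 0.13). In both genes inhibitor mouse 3 was the highest of its group. The hyaluronidase genes Spam1 and Hyal5, whose products disperse the cumulus matrix, are neighbours on chromosome 6. Spam1 had 85.3, 76.3 and 74.1 CPM in inhibitor mice, against 67.7, 65.8 and 77.0 CPM in controls, where control 3 lay among the inhibitor mice (log2 fold change 0.16, SE 0.073). Hyal5 averaged 137 ± 11.3 CPM in inhibitor mice and 133 ± 9.61 CPM in controls. The FPKM ratio of Hyal5 to Spam1 was 1.66, 1.95 and 1.71 in inhibitor mice, against 2.06, 1.89 and 1.86 in controls, with overlap. The remaining genes of this role, Acrv1, for the matrix protein SP-10, Spaca7, for a secreted acrosomal protein, Zp3r, for the matrix protein sp56, and Prss21, for the serine protease testisin, had log2 fold changes between −0.01 and 0.09, all with overlapping groups.

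The lysozyme-like genes encode relatives of c-type lysozyme carried by sperm. All 4 had estimates above 0, and none was separate between the groups. Lyzl1 had 84.4, 75.1 and 66.1 CPM in inhibitor mice, against 64.4, 61.4 and 69.0 CPM in controls (log2 fold change 0.21, SE 0.084, edgeR adjusted p = 0.220). Inhibitor mouse 3 fell within the range of the controls. Spaca3 had 126, 124 and 94.5 CPM in inhibitor mice, against 111, 107 and 112 CPM in controls, and Lyzl6 averaged 116 ± 13.1 CPM in inhibitor mice and 112 ± 9.09 CPM in controls. In both of them inhibitor mouse 3 was the lowest of all 6 mice. Lyzl4, the least abundant, averaged 43.0 ± 3.45 CPM in inhibitor mice and 40.7 ± 1.04 CPM in controls. The FPKM ratio of Spaca3 to Lyzl4 was 3.57, 3.66 and 3.13 in inhibitor mice, against 3.58, 3.46 and 3.47 in controls, with overlap.

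Among membrane proteins of binding and fusion, 7 of 9 estimates were above 0, with a median log2 fold change of 0.06, and the estimates of the 4 Izumo genes ran from 0.04 to 0.27. Izumo3, a paralogue of Izumo1 needed for acrosome formation in mice, had 106, 115 and 90.9 CPM in inhibitor mice, against 89.4, 80.3 and 89.5 CPM in controls. All inhibitor mice lay above all controls, inhibitor mouse 3 by a small margin (log2 fold change 0.27, SE 0.083, edgeR adjusted p = 0.138). Izumo2 had 88.3, 96.5 and 76.2 CPM in inhibitor mice, against 78.6, 72.0 and 80.7 CPM in controls, with overlap (log2 fold change 0.17, SE 0.082). Izumo1, whose product binds the egg receptor JUNO, had 93.1, 91.0 and 72.1 CPM in inhibitor mice, against 86.1, 77.3 and 82.7 CPM in controls. Inhibitor mouse 3 was the lowest of all 6 mice and the others of its group the highest, which left the estimate at 0.06 with a wide interval, from −0.15 to 0.26. Izumo4 was steady, at 88.7 ± 3.51 CPM in inhibitor mice and 86.2 ± 1.29 CPM in controls. The FPKM ratio of Izumo3 to Izumo1, also computed after the values were seen, was 1.39, 1.54 and 1.53 in inhibitor mice, against 1.26, 1.26 and 1.32 in controls, and it was separate between the groups. With the length and GC trend removed, however, the estimate of Izumo1 (0.12, SE 0.118) was above that of Izumo3 (0.07, SE 0.046).

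Spesp1, for a protein of the equatorial segment, differed little but evenly, with 310, 302 and 292 CPM in inhibitor mice, against 282, 276 and 289 CPM in controls. The groups did not overlap (log2 fold change 0.09, SE 0.044, edgeR adjusted p = 0.291). Tex101, for a surface protein required in mice for ADAM3 on sperm, had 143, 150 and 139 CPM in inhibitor mice, against 152, 149 and 152 CPM in controls (log2 fold change −0.07, SE 0.048). Its partner Ly6k averaged 80.8 ± 3.42 CPM in inhibitor mice and 79.0 ± 1.77 CPM in controls. Eqtn, for the acrosomal membrane protein equatorin, averaged 99.0 ± 11.8 CPM in inhibitor mice and 91.2 ± 5.53 CPM in controls. Spaca4, for a protein of the Ly6 family that takes part in zona binding, averaged 73.3 ± 5.13 CPM in inhibitor mice and 77.1 ± 3.16 CPM in controls. Spaca4 lies wholly within Fam83e on the opposite strand, and Izumo1 shares 1336 bases with Rasip1 on its own strand, so the division of their fragments is uncertain.

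**Figure D3:**
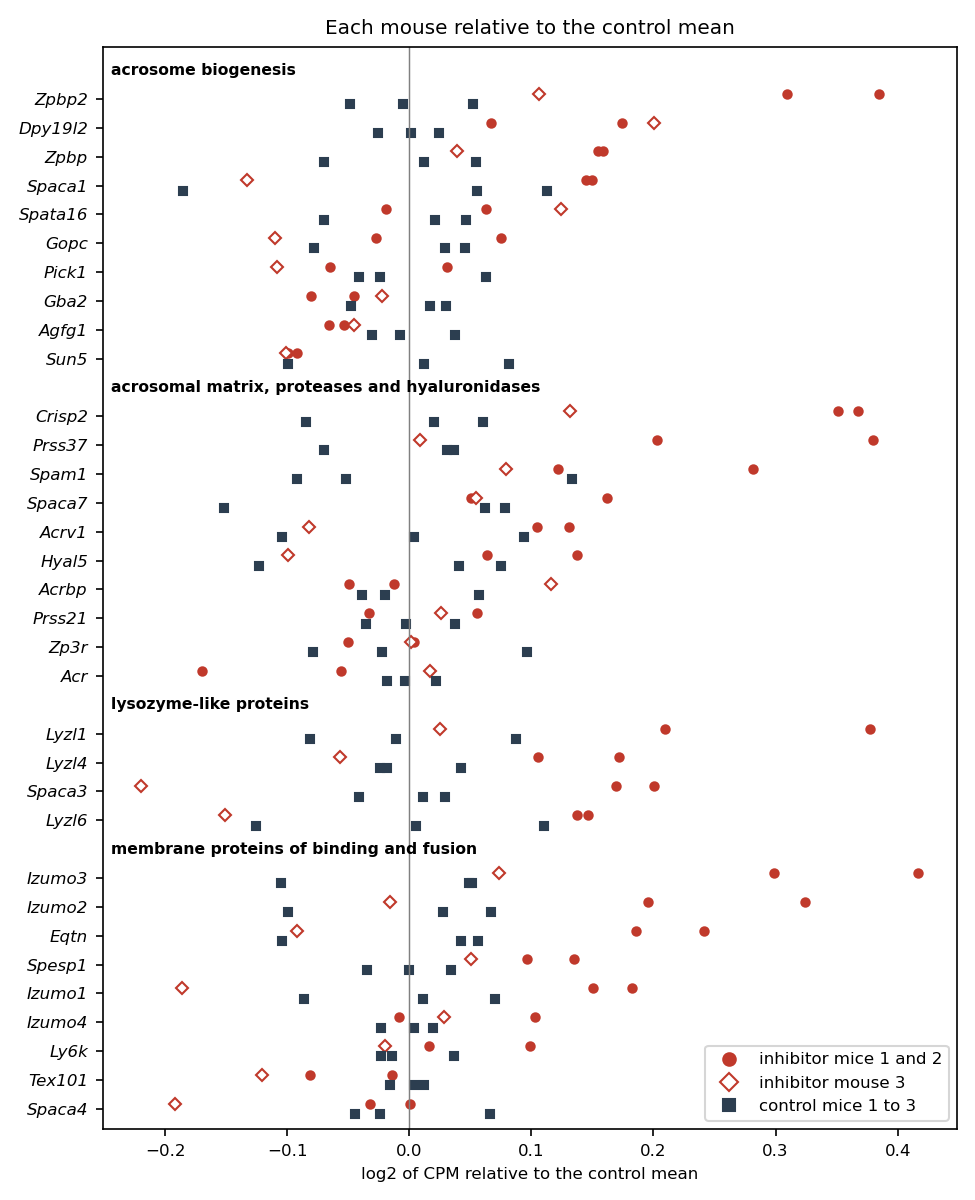
Log2 of CPM in each mouse relative to the control mean of the gene, with inhibitor mice 1 and 2 as filled circles, inhibitor mouse 3 as open diamonds and controls as squares. Inhibitor mouse 3 is the lowest of its group in 23 of 33 genes.

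Inhibitor mouse 3 carried much of the spread. It was the lowest of its group in 23 of 33 genes (69.7%), against 36.1% of the 5398 genes at least as abundant as the lowest of the 33, and the lowest of all 6 mice in 9, against 614 of those 5398. In 16 of 33 genes (48.5%) inhibitor mice 1 and 2 both lay above all controls, and in 2 (6.06%) both lay below. Among the 5398 genes the shares were 32.6% above and 24.5% below. The median coefficient of variation was 6.47% in inhibitor mice and 4.20% in controls for the 33 genes, against 5.30% and 3.19% for the 5398 genes.

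Without inhibitor mouse 3, 9 of 33 genes passed, all higher, where 8.71% of genes tested were called higher in that fit (edgeR). These were Crisp2, Zpbp2, Izumo3, Prss37, Lyzl1, Izumo2, Spaca3, Eqtn and Zpbp. Crisp2 then stood at a log2 fold change of 0.36 (edgeR adjusted p = 1.23e-04), Zpbp2 at 0.35 and Izumo3 at 0.36. Spaca3 stood at 0.19 without that mouse and at 0.06 with it. Acr remained below 0, at −0.11 (edgeR adjusted p = 0.124). In that fit 2 inhibitor mice were set against 3 controls, and the length and GC trend was not removed. With that trend removed on all 6 mice, Eqtn stood at −0.10 and Spaca3 at −0.03. The rest of these 9 genes stayed above 0, Izumo2 at 0.01. Leaving out any mouse other than inhibitor mouse 3 left 0 of the 33 past the threshold, in fits that called few genes or none. Over all genes, 3 were called higher and 7 lower without control 3. Without inhibitor mouse 1, inhibitor mouse 2, control 1 or control 2, 0 were called in either direction. DESeq2, on all 6 mice, called Crisp2, Zpbp2 and Izumo3 higher, with adjusted p of 0.00560, 0.0122 and 0.0392. Of the 11463 genes to which it gave an adjusted p, out of 20568 tested, it called 3.20% higher.

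**Figure D4:**
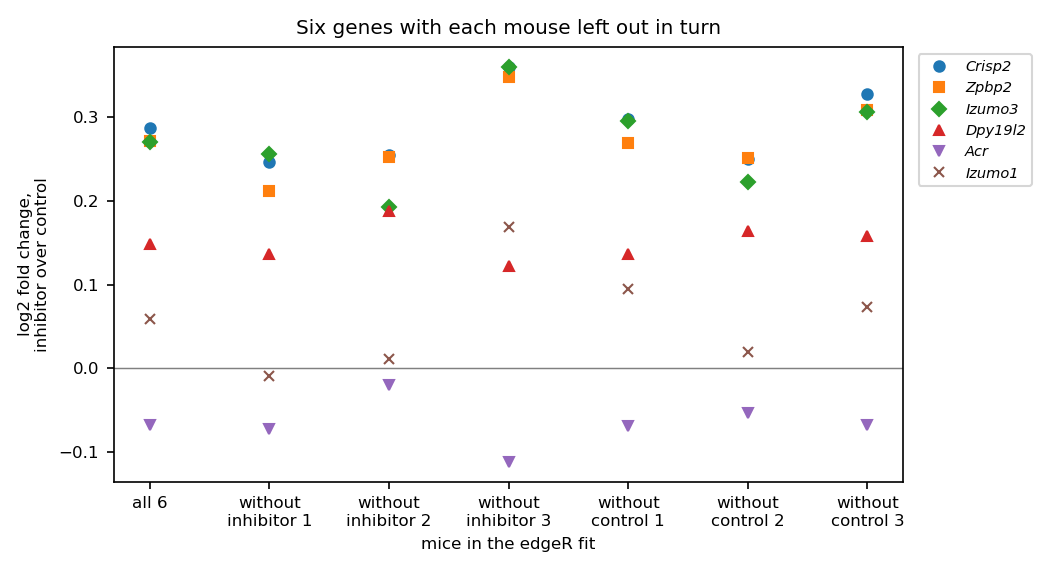
Log2 fold change of 6 genes in edgeR fits with all mice and with each mouse left out in turn. Crisp2, Zpbp2 and Izumo3 are highest without inhibitor mouse 3, at 0.36, 0.35 and 0.36, and Acr is below 0 in each fit.

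The size of the difference also moved with the make-up of the transcripts. Across the 33 genes the Spearman correlation of log2 fold change with transcript GC content was −0.51. It was −0.34 across 5077 genes with a known transcript that were at least as abundant as the lowest of the 33. Genes within a library share its depth and base composition, so these are descriptions across genes. The 5077 abundant genes were cut into 5 bins of near-equal size by GC content. Their median log2 fold change ran from 0.07 in the lowest bin (up to 43.5% GC) to −0.04 in the highest (from 54.7% GC). By length it ran from 0.11 in the shortest bin (up to 1875 bases), which held 18 of the 33, to −0.06 in the longest. The Spearman correlation of log2 fold change with length was −0.11 across the 33, against −0.46 across the 5077 genes. Crisp2 has a GC content of 38.9%, Izumo3 41.0% and Zpbp2 47.1%.

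With each library's trend on length and GC content removed, the median log2 fold change of the 33 was 0.00, 17 were above 0, and 11 had changed sign. In that fit the median was 0.0048 over all genes tested, and 0.02 to 0.04 across the bins of abundant genes. Crisp2 then stood at 0.14 (SE 0.038), Zpbp2 at 0.17 (SE 0.047) and Izumo3 at 0.07 (SE 0.046). Lyzl1 stood at 0.01, Spam1 at 0.01 and Prss37 at 0.05. At the other end Sun5 was at −0.18 (SE 0.058) and Tex101 at −0.16 (SE 0.042). None of the 33 passed after this step, and the lowest edgeR adjusted p was 0.149, for Tex101. The part of transcript length and base composition in the differences was not tested beyond this.

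**Figure D5:**
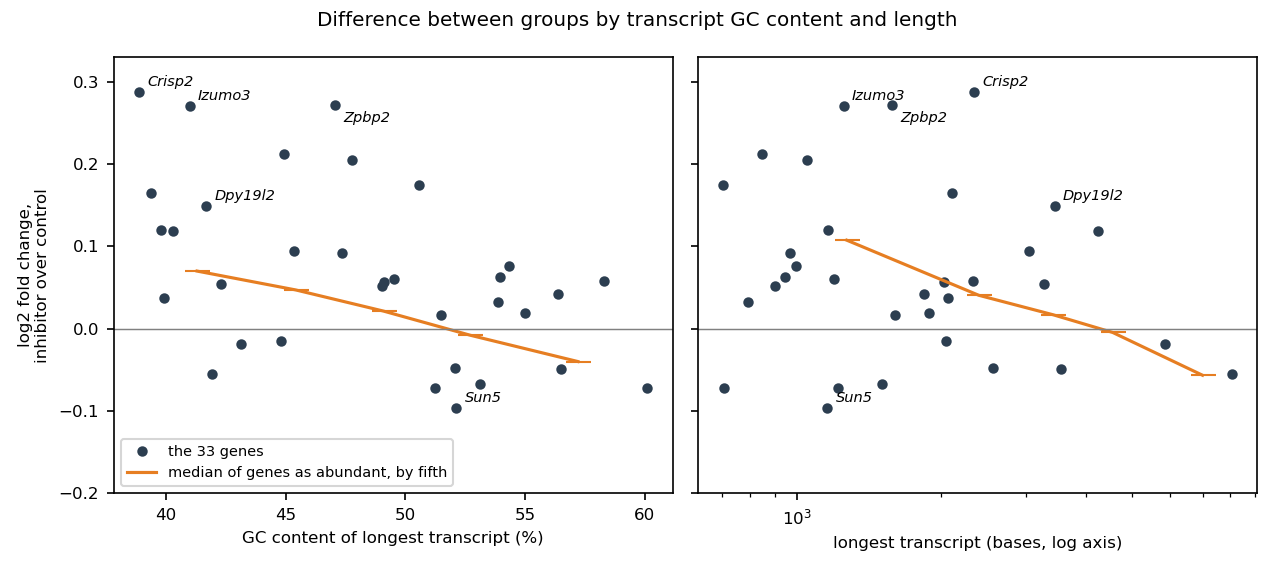
Log2 fold change of the 33 genes against GC content (left) and length (right, log axis) of the longest annotated transcript. The line joins the medians, in 5 bins of each property, of genes at least as abundant as the lowest of the 33. These medians run from 0.07 to −0.04 by GC content and from 0.11 to −0.06 by length.

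The genes are scattered over the genome, with small neighbourhoods. On the GRCm38 assembly, Spam1 (24791188 to 24801048) and Hyal5 (24857997 to 24891958) lie side by side on the forward strand of chromosome 6. Izumo1 (45621811 to 45628823, forward) and Spaca4 (45725107 to 45725813, reverse) lie close together on chromosome 7. Zpbp2 (98551097 to 98558665, forward) and Zpbp (11279626 to 11462408, reverse) are far apart on chromosome 11. Genes of round spermatids are often switched on by CREM through the cAMP response element, so the palindrome TGACGTCA, which reads the same on both strands, was searched in RefSeq promoter windows (GRCm38.p6) from 250 bases before to 50 after the start site. A window was held for 28 of the 33 genes, and only that of Izumo1 had a match (3.57%), against 2.61% of 16344 tabulated genes with a window. No other motif was searched, and a match is a description, not a site.

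The Izumo1 window is shown because it is the one with the match, which is in capitals and begins 96 bases before the start site (chr7:45621561-45621860, forward strand, GRCm38.p6, RefSeq).
Izumo1: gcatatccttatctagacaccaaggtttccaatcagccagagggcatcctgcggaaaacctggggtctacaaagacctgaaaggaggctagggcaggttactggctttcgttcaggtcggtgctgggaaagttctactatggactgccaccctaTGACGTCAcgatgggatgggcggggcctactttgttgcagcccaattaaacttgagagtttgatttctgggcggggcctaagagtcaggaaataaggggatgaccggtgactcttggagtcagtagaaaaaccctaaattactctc

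Other genes of the pathway were read from the same fit. Of 61 listed genes outside the 33, 60 matched the table and 56 were abundant enough to be tested, and 0 passed in either direction (edgeR). At an unadjusted p threshold of 0.05, 14 were higher and 6 lower, and the groups did not overlap in 13 that were higher and 7 that were lower. Over all genes tested the shares were 9.43% higher and 8.48% lower by that p, and 11% higher and 11.9% lower by separation. The median log2 fold change was 0.06, with 35 of 56 above 0. It was 0.02 with the length and GC trend removed, a step that leaves genes without a matched transcript unadjusted. The smallest p was that of Hook1, for a microtubule-linked protein that shapes the spermatid head, at 734 ± 18.9 CPM in inhibitor mice and 642 ± 22.7 CPM in controls (log2 fold change 0.19, SE 0.044, edgeR adjusted p = 0.0836). Adam2, for a fertilin subunit, averaged 559.9 ± 17.8 CPM in inhibitor mice and 499 ± 12.6 CPM in controls (log2 fold change 0.17). Plcz1, for the phospholipase that activates the egg, averaged 292 ± 7.91 CPM in inhibitor mice and 262 ± 9.39 CPM in controls (0.16). The fusion gene Llcfc1, tabulated as 1700034O15Rik, averaged 236 ± 27.8 CPM in inhibitor mice and 195 ± 7.20 CPM in controls (0.27). Without inhibitor mouse 3, 12 genes of this list were called higher and 2 lower, where 8.71% of all genes tested were called higher and 5.54% lower. Plcz1 stood at 0.04, Adam2 at 0.10 and Hook1 at 0.19 once the length and GC trend was taken out. Llcfc1 (1700034O15Rik) had 0.2721 in both fits, so the step appears to have left it unadjusted.

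By subgroup, acrosome formation and attachment had 11 of 17 estimates above 0 with a median log2 fold change of 0.08. The genes listed for maturation of the sperm surface protein ADAM3 had 9 of 12 above 0 and a median of 0.06. That list includes Rnase10 (−0.38), which is also read below as an epididymal marker. Enzymes and inhibitors of the acrosome had 5 of 7 above 0 and a median of 0.07, and fusion and egg binding 6 of 11 and 0.02. Acrosomal exocytosis, largely genes of the general vesicle fusion machinery, had 4 of 9 above 0 and a median of 0.00.

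Levels of germ cell markers outside the set were read beside these differences. The summed level of 10 elongating spermatid markers was 20834 to 22269 CPM in inhibitor mice and 19188 to 20134 CPM in controls, without overlap. Of the 10, 3 (Prm2, Tnp2 and Akap4) were separate and higher alone, against 11% of all genes tested. The markers were not alike. Log2 fold changes ran from 0.14 to 0.44 in Prm1, Prm2, Tnp1, Tnp2 and Akap4. They were −0.0002 in Odf1, 0.01 in Oaz3, 0.04 in Smcp and in Gapdhs, and 0.08 in Prm3. No sum was taken without Prm1, Prm2, Tnp1, Tnp2 and Akap4. Values with the length and GC trend removed are not given for the germ cell markers. For 7 spermatocyte markers the summed level was 7286 to 7412 CPM in inhibitor mice and 6764 to 7029 CPM in controls, also without overlap. That sum was carried by Ldhc and Pgk2. Without them the other 5 summed to 2290.5 to 2433 CPM in inhibitor mice and 2357 to 2405 CPM in controls, with overlap, a split made after the values were seen. Of the 7, 5 were separate and higher in inhibitor mice, where 11% of all genes tested were separate and higher and 11.9% separate and lower. Piwil1 was separate and lower, at 421 to 463 CPM in inhibitor mice and 468 to 514 CPM in controls, and Hspa2 had an estimate of −0.07. For 6 markers of round spermatids, the stage that builds the acrosome, the summed level was 1524 to 1706 CPM in inhibitor mice and 1527 to 1607 CPM in controls, with overlap. None of these markers passed alone. The 33 genes together summed to 6695 to 7372 CPM in inhibitor mice and 6248 to 6660 CPM in controls, and without Crisp2 the other 32 summed to 4639 to 4950 CPM in inhibitor mice and 4478 to 4703 CPM in controls, with overlap. The part of spermatid and spermatocyte abundance in the acrosome values was not tested.

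At the start of the lineage, 8 markers of undifferentiated spermatogonia summed to 55.7 to 62.8 CPM in inhibitor mice and 77.7 to 84.0 CPM in controls. Of these, 4 (Ret, Sox3, Lin28a and Zbtb16) passed as lower, against 0.0960% of all genes tested. Sall4 and Foxo1 were separate and lower without passing, and Gfra1 and Uchl1 overlapped. Uchl1 alone gave 32.0 to 40.9 CPM of that sum in inhibitor mice. Without inhibitor mouse 1, inhibitor mouse 2, control 1 or control 2, 0 genes at all were called lower. The differentiating spermatogonia markers summed to 51.2 to 54.2 CPM in inhibitor mice and 60.0 to 64.8 CPM in controls, and none passed alone. Sertoli cell markers summed to 1216 to 1461 CPM in inhibitor mice and 1288 to 1319 CPM in controls. Clu alone gave 869 to 1127 CPM of that sum in inhibitor mice. Amh was separate and lower (log2 fold change −0.65), Cst9 (0.23) and Cst12 (0.275) were separate and higher, and the rest overlapped. Leydig cell markers summed to 853 to 1021 CPM in inhibitor mice and 914 to 1157 CPM in controls. Epididymal markers, which could bring in sperm or duct tissue, summed to 1.71 to 7.66 CPM in inhibitor mice, the lowest in inhibitor mouse 3, and 5.54 to 6.29 CPM in controls. Of those 8 markers 6 were at 0 in at least 1 library and Lcn5 in all, and of the remainder Rnase10 stood at 0.070 CPM in inhibitor mouse 3.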

How the data were processed

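The deposited table gave, per gene and mouse, estimated counts (raw fragments assigned to the gene, unscaled) and FPKM, scaled by the authors' software to length and library size. Per the submitters' processing notes, cutadapt 1.8, TopHat2 2.0.13 and Cuffdiff 2.2.1 were used with build mm10; annotation and strand setting of the counting: not given in the sources used here. The count values of the 33 genes were all whole within 1e-06, and other genes' were rounded. Depth, 23144295 to 43127890 fragments per library, put 23.1 to 43.1 fragments behind 1 CPM, and Gopc, the least abundant by CPM, rested on 882 to 1523 fragments per library.

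Genes were filtered with filterByExpr, scaled with TMM factors and tested with edgeR 4.0.16 (robust quasi-likelihood F-test, two-sided, Benjamini-Hochberg over 16658 genes, threshold 0.05) in R 4.3.3. The procedure was tested on simulated data with known changes, all larger than any estimate among the 33. That test therefore does not show how changes of the size seen here are recovered. Intervals are unadjusted. CPM used the same normalisation. Alternatives were other scalings, DESeq2 1.42.0, limma 3.58.1 with voom or on log2(FPKM + 1) and log2(FPKM + 0.1), other filters, a block for mouse number, leaving out each mouse, and removal of a loess trend (span 0.5) on the length and GC content of the longest GENCODE M21 transcript (GRCm38, the same assembly as mm10), fitted per library on genes whose mean log2 CPM exceeded 1, as an offset. All 33 genes had a length, as did 93.3% of genes tested. Genes without a length were left unadjusted by the trend removal. Protein alignments planned for paralogues were not made, and no protein sequence was used here.

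The 33 genes and all lists were chosen with earlier results of these data known. Values of every mouse are given for the 12 of the 33 with the smallest p and for Acr, Spam1, Izumo1, Dpy19l2, Zpbp and Acrbp, and Spaca3 was added after its values were seen. Of the other pathway genes the 4 with the smallest p are named. Of 61 pathway symbols 60 matched the table, 5 through a RefSeq synonym.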

Additional observations from a re-analysis of the deposited data

How the results depend on the processing

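The 33 genes gave 0 calls in either direction in the edgeR, limma-voom and limma fits, with any scaling, filter or correction tried on all 6 mice; DESeq2 called 3 higher, and 0 to 9 were called higher with a mouse left out. The median log2 fold change of the 33 lay between 0.02 and 0.12 with a mouse left out and at 0.03 with library totals alone. It was 0.00 with the length and GC trend removed, and −0.0008 when the replicate block was added to that. Pathway genes called higher numbered 3 in DESeq2 and 0 to 12 with a mouse left out, and those called lower 0 to 2. Of the named genes, Acrbp turned to −0.0112 with library totals alone. With a mouse left out its log2 fold change ran from −0.0313 (without inhibitor mouse 3) to 0.0527, and that of Izumo1 from −0.0087 (without inhibitor mouse 1) to 0.1682. The cause was not tested.

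Over all genes, 10 were called higher and 16 lower. Library totals alone gave 4 higher and 23 lower, DESeq2 367 higher and 166 lower, limma-voom 0 and 2, log2(FPKM + 1) 0 and 0, and log2(FPKM + 0.1) 0 and 1. No filter gave 58 higher and 57 lower, and at least 50 counts in 3 libraries 3 and 7. With a mouse left out, 0 to 1470 were called higher and 0 to 935 lower, both most without inhibitor mouse 3. At an unadjusted p threshold of 0.05, the limma fit on log2(FPKM + 1) had 5 of the 33 higher and 0 lower (9.71% and 7.03% of all genes), the fit with the length and GC trend removed 2 and 5 (8.29% and 5.41%), and that with the replicate block as well 2 and 3 (6.93% and 4.69%). With the 50 most abundant genes removed Crisp2 was not tested. No pairing by mouse number was seen. Deviations of same-numbered mice correlated at 0.06, −0.12 and −0.02, and those of differently numbered mice at −0.159 to 0.173. With so few mice this cannot exclude a pairing. With the replicate block, 0 genes were called higher and 5 lower over all genes and 0 of the 33, and with the trend removed as well 0 and 2. The median SE of the 33 log2 fold changes, 0.064, and the number of mice limit what could be called.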
